A study of Homo sapiens with 32 samples.

Results

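The genes described here are 36 members of the response to low oxygen and of glycolysis, given as a list of names, drawn up with earlier results of these data known, and followed across 32 cell lines established from human acute myeloid leukaemia (AML). A probe set with a single gene symbol stood for 35 of the 36 in the name table used, and CA9 was not analysed here. The 35 belong to 19775 genes with such a probe set, of which 15455 were tested, and all 35 were among those tested. They were divided by role into 18 HIF-specific genes, 7 genes of glucose uptake and flux control, and 10 core enzymes of glycolysis.

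Total RNA of each line was measured on 1 Affymetrix array with 54675 probe sets, so no line has a replicate. The lines came from commercial cell banks, no treatment is named, and the stated aim was to set expression beside the sensitivity of the lines to PIM kinase inhibitors. By the culture labels, 21 lines grew in RPMI medium with serum and no cytokine named, 4 lines (SH-2, SHI-1, OCI-M2 and OCI-M1) in IMDM with serum and no cytokine named, and 4 lines with an added cytokine. Of these last, F-36P received IL-3 at 5 ng/ml in RPMI, and OCI-AML2, OCI-AML3 and OCI-AML5 received GM-CSF or SCF in alpha-MEM. The medium of MOLM-13, MOLM-16 and MV4-11 was not stated. All lines shared a humidified incubator at one temperature and one CO2 setting, and the oxygen level was not stated. HL-60 with PLB-985, and KG-1 with KG-1A, are sublines of one origin and were averaged, which leaves 30 units.

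Hypoxia-inducible factor (HIF) is a transcription factor of an oxygen-sensitive alpha subunit, such as HIF1A, and the stable subunit ARNT. With oxygen present, prolyl hydroxylases of the EGLN family mark the alpha subunit for destruction through VHL; when oxygen is short, HIF accumulates and switches on genes for glucose uptake, glycolysis, mitochondrial autophagy, collagen hydroxylation and blood vessel growth. Most glycolytic enzymes are also needed, and made, in cells with ample oxygen, whereas genes such as ADM, ANKRD37 and EGLN3 are known mainly as HIF targets. In blood-forming tissue, HIF activity and glycolysis are features of stem cells in the bone marrow niche, and MYC and growth factor signals can also raise glycolytic genes.

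HIF binds a short core, ACGTG or GCGTG, on either strand. The 250 bases upstream of the start of 4 members are shown, as RefSeq gives them on GRCh38.p14, because the levels of these genes set particular lines apart in what follows: BNIP3 and EGLN1 for lines that lack them, ADM for 1 line that stands above the rest, and P4HA1 for the contrast of culture groups. Each is written 5′ to 3′ on the strand of its gene, with every match to the core, on either strand, in capitals. These are reference sequences, not those of the lines.
BNIP3: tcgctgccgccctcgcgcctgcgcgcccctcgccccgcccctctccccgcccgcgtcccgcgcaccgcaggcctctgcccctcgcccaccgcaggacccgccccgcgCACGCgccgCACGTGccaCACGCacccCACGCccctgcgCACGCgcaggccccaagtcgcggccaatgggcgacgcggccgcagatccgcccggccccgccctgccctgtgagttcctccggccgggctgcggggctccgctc
EGLN1: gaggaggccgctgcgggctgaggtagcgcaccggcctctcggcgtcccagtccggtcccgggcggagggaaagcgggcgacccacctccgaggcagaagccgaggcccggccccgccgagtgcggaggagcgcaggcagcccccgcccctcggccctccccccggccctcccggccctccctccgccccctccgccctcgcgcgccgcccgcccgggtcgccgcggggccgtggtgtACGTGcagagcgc
ADM: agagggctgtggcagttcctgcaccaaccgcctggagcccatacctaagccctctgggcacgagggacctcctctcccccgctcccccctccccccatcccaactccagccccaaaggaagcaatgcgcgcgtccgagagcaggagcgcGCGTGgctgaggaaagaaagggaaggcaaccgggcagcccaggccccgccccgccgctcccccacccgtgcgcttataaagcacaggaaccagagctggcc
P4HA1: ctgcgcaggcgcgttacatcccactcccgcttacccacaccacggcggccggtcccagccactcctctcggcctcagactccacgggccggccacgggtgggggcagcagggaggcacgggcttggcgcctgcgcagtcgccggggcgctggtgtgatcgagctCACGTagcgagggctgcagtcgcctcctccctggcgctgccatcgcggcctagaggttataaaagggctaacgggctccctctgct
The BNIP3 window (chr10:131981924-131982173, minus strand) holds 6 matches, the nearest 104 bases before the start, and 41 CpG dinucleotides, more than 98.3% of all promoter windows have. Its CACGTG holds the core once on each strand and counts as 2 of these matches. The EGLN1 window (chr1:231422288-231422537, minus strand) holds 1 match, 13 bases before the start. The ADM window (chr11:10304823-10305072, plus strand) and the P4HA1 window (chr10:73096867-73097116, minus strand) hold 1 match each, 101 and 86 bases before the start. Of the 52 windows in the table for the 30 members matched by symbol, 36 (69.2%) held a match, compared with 43.2% of 35116 promoter windows of the same length. The match was present in 16 of 20 windows of HIF-specific members and in 13 of 17 windows of core enzymes. The member windows also had more CpG dinucleotides, with a median of 24 against 11 in all windows, and the core motifs contain a CpG themselves. A match of 5 letters is a description of the sequence and does not show that HIF binds there.

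Levels are given as log2(signal + 16), on which 1 unit is a 2-fold change of signal + 16, and the middle of all probe sets on all arrays lies at 6.73. On this scale, and with no matching of genes by level, the HIF-specific genes varied more from line to line than the core enzymes. The SD over 30 units had a median of 1.34 over the 18 HIF-specific members (from 0.601 to 2.35), 1.07 over the 7 members of uptake and flux control and 0.489 over the 10 core enzymes, beside 0.801 over all tested genes. An SD above 1 was seen in 14 of 18, 4 of 7 and 3 of 10 members of these lists and in 31.4% of all tested genes. The order of the HIF-specific and core medians was the same under the 7 alternatives tried, with 1.44 and 0.766 after median centring and 1.09 and 0.623 with the mean of all probe sets of a gene, the latter chosen after seeing the data. Fewer cells with a transcript and less of it in each cell cannot be told apart in such bulk RNA.

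With 1 probe set for each gene, the one with the highest mean, the steadiest members were triose phosphate isomerase, TPI1 (SD 0.378), enolase 1, ENO1 (SD 0.416), and phosphoglycerate kinase, PGK1 (SD 0.454). TPI1 lay between 13.19 in GF-D8 and 14.61 in ML-2, with a median of 13.90. ENO1 lay between 13.40 in GF-D8 and 15.13 in OCI-AML5, with a median of 14.56. PGK1 lay between 12.96 in GF-D8 and 14.86 in OCI-M2, with a median of 14.07. Phosphoglycerate mutase 1 (PGAM1, SD 0.458), aldolase A (ALDOA, 0.484) and lactate dehydrogenase A (LDHA, 0.495) were nearly as steady, and glucose-6-phosphate isomerase (GPI) followed with an SD of 0.814. GF-D8 or GDM-1 was the lowest unit for 6 of these 7 enzymes, and NOMO-1 for ALDOA; as given further on, the RNA of all 3 arrays had a high GAPDH ratio. Other probe sets of the same genes were less steady. A second abundant ENO1 probe set (mean 12.91) ran from 9.20 in NB-4 to 14.50 in OCI-AML5, with GDM-1, ML-2 and GF-D8 next lowest, all arrays with a high GAPDH ratio. A PGK1 probe set (mean 12.52) ran from 9.99 in GDM-1 to 14.18 in OCI-M2. With the mean of all probe sets, the SD was 0.648 for ENO1, 0.598 for PGK1 and 0.370 for TPI1, and the 3 smallest were TPI1, PGAM1 and LDHA.

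The core list splits at its isozymes. Enolase 2 (ENO2), the isozyme best known from neurons, had the largest SD of any member (2.43) and ran from 4.39 in SKM-1 through a median of 9.40 to 13.01 in OCI-AML5. Aldolase C (ALDOC), the brain-type aldolase, had an SD of 2.05 and ran from 6.27 in HNT-34 through 8.58 to 12.80 in OCI-AML5. The platelet-type phosphofructokinase PFKP had an SD of 1.04, with its lowest value, 7.70, in F-36P and its highest, 12.72, in OCI-AML5. The lowest values of ENO2 and ALDOC lay under 6.73, so no fold is given for their range. ENO2, ALDOC and PFKP had means of 8.72, 9.15 and 11.61. Those of TPI1, ENO1, PGK1, PGAM1, ALDOA and LDHA were higher, from 13.89 to 14.50. Spread and level thus went together in the core list, and the part of level in the spread was not tested.

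**Figure D1:**
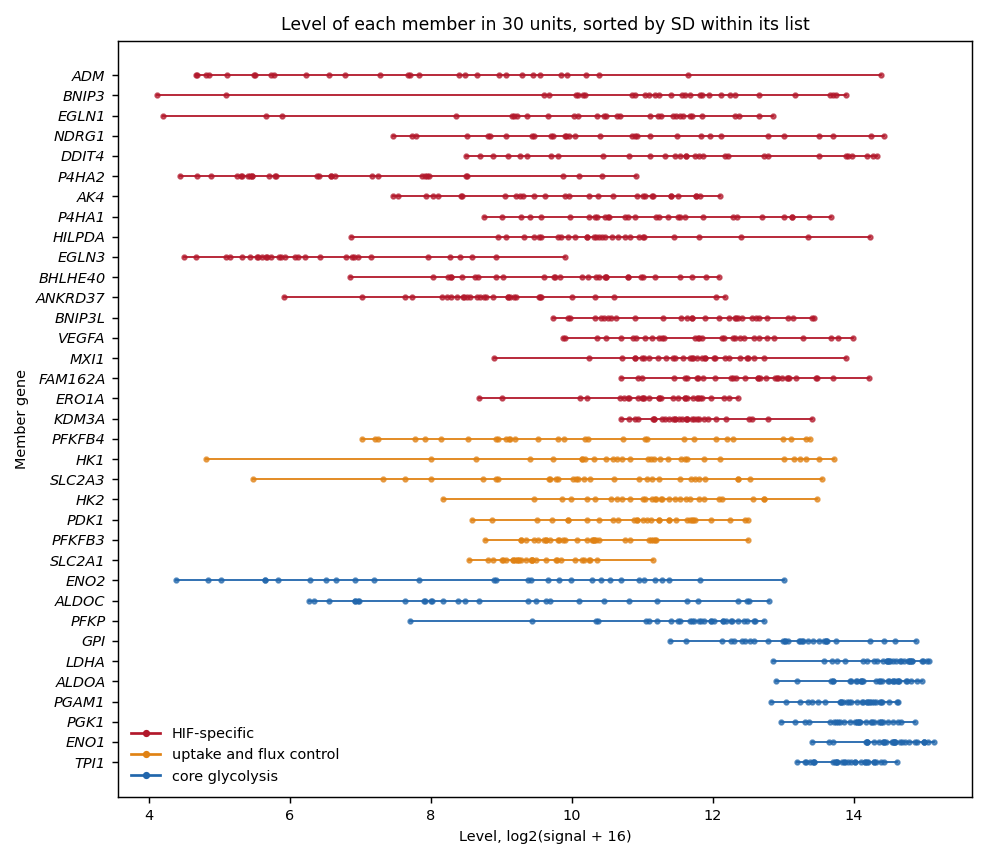
Level of each member, as log2(signal + 16), with 1 point for each of 30 units and a line from the lowest to the highest; members are sorted by SD within the HIF-specific list (red), the uptake and flux control list (orange) and the core list (blue). Most core enzymes span about 2 log2 units, while ENO2, ADM, BNIP3 and HK1 each span more than 8.

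Among the HIF-specific genes, the vasodilator peptide gene ADM varied most (SD 2.35), from 4.67 in THP-1 through a median of 7.77 to 14.38 in OCI-AML5. BNIP3, which encodes a receptor for the autophagy of mitochondria, had an SD of 2.15 and a median of 11.48. The oxygen sensor EGLN1 had an SD of 2.05 and a median of 10.66. NDRG1, a stress-response gene, had an SD of 1.93 and ran from 7.46 in KMOE-2 through 10.22 to 14.42 in GF-D8. DDIT4, an inhibitor of mTOR signalling, had an SD of 1.82 and ran from 8.50 in HEL through 11.62 to 14.33 in SHI-1. P4HA2, a collagen prolyl hydroxylase subunit, had an SD of 1.79 and ran from 4.45 in SH-2 through 6.50 to 10.91 in OCI-M2.

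The other 12 HIF-specific members had SDs from 0.601 (KDM3A, a histone demethylase) to 1.42 (AK4, a mitochondrial adenylate kinase). They include VEGFA, the blood vessel growth factor, which lay between 9.88 in FKH-1 and 13.99 in PL-21, and HILPDA, a lipid droplet protein, which lay between 6.87 in GF-D8 and 14.23 in OCI-AML5. EGLN3, the prolyl hydroxylase most strongly induced by HIF in many cells, was above 6.73 in 11 of 30 units, and P4HA2 in 12, so their low values carry little order. The remaining members of this group are ANKRD37 (SD 1.26), BNIP3L (1.11), the MYC antagonist MXI1 (0.891), the clock-related repressor BHLHE40 (1.31), P4HA1 (1.35), the oxidoreductase ERO1A (0.842) and the mitochondrial protein FAM162A (0.849).

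In the uptake and flux control list, PFKFB4, which makes the activator of phosphofructokinase, had an SD of 1.93 and ran from 7.03 in FKH-1 through 9.85 to 13.38 in OCI-M2. Hexokinase 1 (HK1) had an SD of 1.82 and a median of 11.10. The high-affinity glucose transporter SLC2A3 had an SD of 1.75 and lay between 5.48 in ML-2 and 13.55 in OCI-M2. SLC2A1, the basal glucose transporter, was the steadiest of the list, with an SD of 0.56, from 8.54 in PL-21 to 11.15 in SET2. Hexokinase 2 (HK2), PFKFB3 and the pyruvate dehydrogenase kinase PDK1 had SDs of 1.07, 0.783 and 0.979.

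Some arrays stood apart in quality. The signal of the 3′ GAPDH control probe set over that of the 5′ one, a ratio that grows as RNA degrades, was between 2.42 and 7.08 on 8 arrays (GF-D8, GDM-1, ML-2, NOMO-1, HL-60, MOLM-13, NB-4 and THP-1) and between 0.871 and 1.24 on the other 24. The median signal was 198.4 on the NOMO-1 array and 243.3 on the GF-D8 array, and between 68.2 and 115.4 on the other 30. The leukocyte marker PTPRC was above 6.73 in 30 of 30 units and the myeloid factor SPI1 in 27. Of the other leukocyte and myeloid markers, KIT was above 6.73 in 22 units, MPO in 20 and CD34 in 14. The B cell markers CD79A and MS4A1 were above 6.73 in 30 and 7 units, and the T cell marker CD3D reached 13.38 in FKH-1. The other T and NK cell markers, CD3E and NCR1, reached 8.32 in NOMO-1 and 8.37 in GF-D8 at most. The stromal or epithelial markers COL3A1, KRT19 and CDH1 were above 6.73 in 2, 1 and 2 units. COL1A1 was above it in 30 and KRT8 in 27, at levels up to 10.42 and 9.59, and EPCAM reached 13.26 in OCI-M2.

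Averaged over the 18 HIF-specific members as differences from each gene's mean, which is called the HIF score here, OCI-AML5 lay highest at 2.42 and OCI-M2 next at 1.52. OCI-AML2 (1.26), OCI-AML3 (1.14) and SHI-1 (0.56) followed, and HEL (−1.07), ML-2 (−0.93) and GDM-1 (−0.76) were lowest. The same average over the core list was 1.35 in OCI-AML5, 1.03 in SHI-1 and 0.93 in OCI-AML3. MOLM-16 (0.83), OCI-AML2 (0.80) and OCI-M2 (0.69) came next, and MO7E (−0.92) was lowest. These averages are not scaled by SD, so ENO2 (SD 2.43) and ALDOC (SD 2.05) weigh most in the core list. MO7E was among the 3 lowest units for 0 core enzymes, whereas GF-D8, with a core average of −0.73, was so for 6. Over the uptake and flux list OCI-M2 (1.68) and OCI-AML5 (1.56) led and ML-2 (−1.40) was lowest. HEL was low in the HIF-specific genes but not in the other lists (0.38 for uptake and flux, 0.15 for core), and MOLM-16 was near the middle in HIF-specific genes (0.29) with 1.13 and 0.83 in the other lists.

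**Figure D2:**
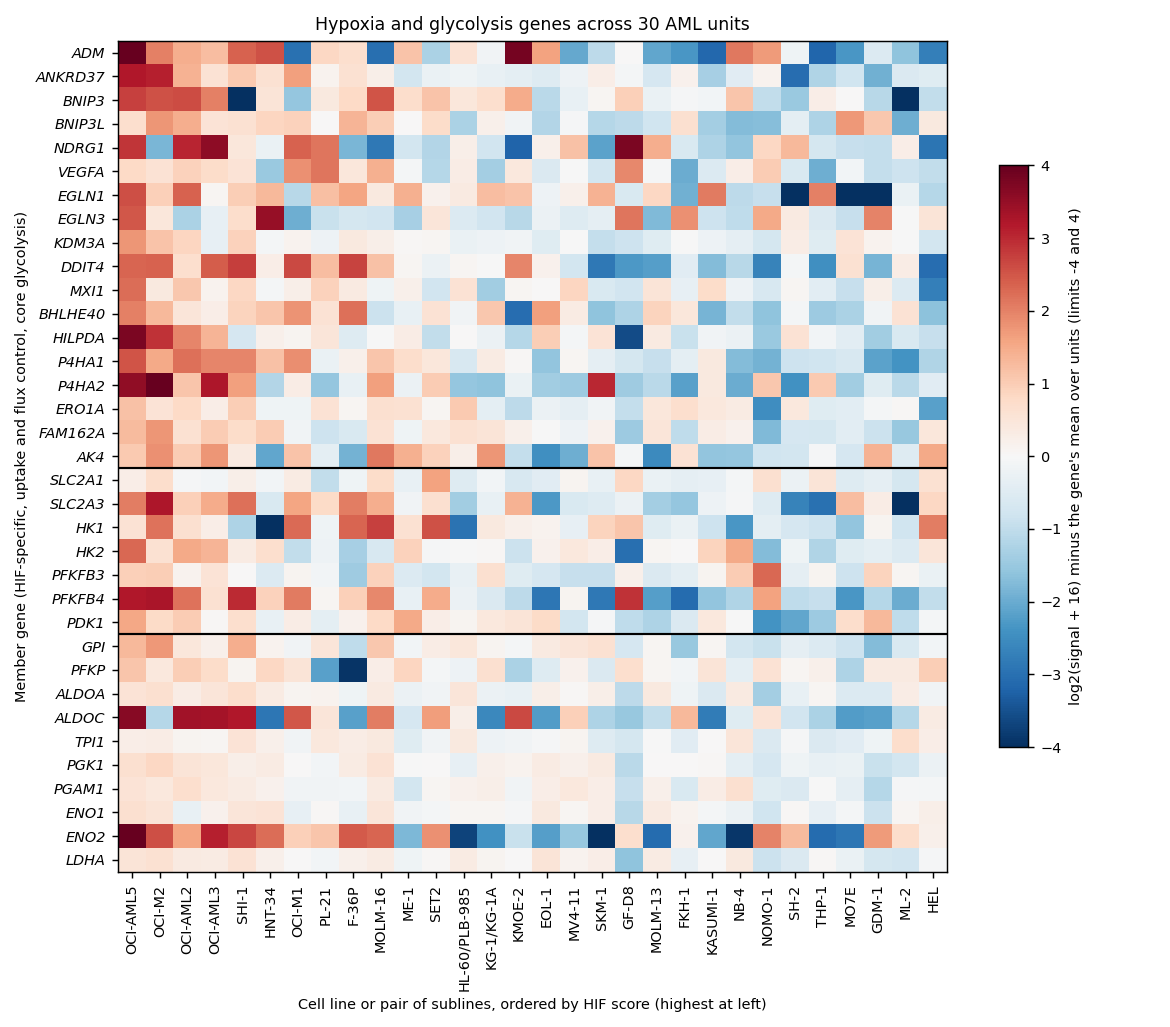
Difference of each member (rows, in the order HIF-specific, uptake and flux control, core glycolysis, separated by black lines) from its own mean over 30 units, on the log2(signal + 16) scale with colours limited to −4 and 4; columns are units ordered by HIF score. The rows of ENO2 and ALDOC stand out among the pale rows of the core enzymes, and single dark blue cells mark BNIP3 in SHI-1 and ML-2, HK1 in HNT-34 and EGLN1 in GDM-1, MO7E and SH-2.

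In OCI-AML5, 35 of 35 members lay above their mean over units, 15 were at their highest of all units, and 26 were among their 3 highest. Of all tested genes, 6.26% had OCI-AML5 among the 3 highest units. Its 26 members were 13 HIF-specific genes, 4 of uptake and flux control and 9 of the 10 core enzymes. In OCI-M2, 33 of 35 lay above their mean and 16 were among the 3 highest, against 12% of all tested genes. Its exceptions were NDRG1 (8.81) and ALDOC, both below the members' means of 10.65 and 9.15. OCI-AML2 was among the 3 highest for 11 members (8.24% of all tested genes) and SHI-1 for 10 (8.75%).

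At the other end, NOMO-1 was among the 3 lowest units for 12 members (19.3% of all tested genes) and GF-D8 for 10 (23%). The share of members in NOMO-1 was above that of all genes, and in GF-D8 it was near it. Both arrays had a high GAPDH ratio. The HIF score of the 7 units with a high ratio lay between −0.93 and −0.35 (median −0.63) and that of 22 units with a low ratio between −1.07 and 2.42 (median 0.09), leaving out the HL-60 and PLB-985 pair, which has 1 array of each kind. The Pearson correlation of the score with the log2 ratio over 30 units was −0.43 for the HIF-specific, −0.319 for the uptake and flux and −0.384 for the core list, as a description. The part of RNA quality in the low scores was not tested. The 5 highest HIF scores were all on arrays with a low ratio.

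A member was called lost in 1 line if its lowest unit was below 6.73 and at least 2 log2 units under the next. HK1 met this in HNT-34, and 2.09% of all tested genes had such a unit. HK1 was 4.81 in HNT-34 (signal 12.1), the next lowest were the HL-60 and PLB-985 pair at 8.01 and NB-4 at 8.64, and the highest was MOLM-16 at 13.72. In HNT-34, HK2, the inducible hexokinase, was at 11.88, close to its own median of 11.23, and HK3 was at 4.42, below 6.73 like its median of 4.61. HK1 has 1 probe set in the table, so no second probe set bears on its low value. Of the 5 tested genes on each side of HK1 on chromosome 10, 9 of 10 in HNT-34 were within 2 log2 units of their medians, and the exception, MACROH2A2, was higher by 3.96.

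BNIP3 did not meet that rule, because 2 lines lacked it. It was 4.12 in SHI-1 (signal 1.4) and 5.10 in ML-2 (signal 18.3), while the next lowest was 9.60 in OCI-M1 (signal 759.0), the median 11.48 and the highest 13.89 in OCI-AML5 (signal 15191.5). The 2 lines were picked by these values, so their separation from the other 28 units is only a description. The second BNIP3 probe set also had SHI-1 (4.84) and ML-2 (5.89) lowest, but the next unit was GDM-1 at 7.87. The gap there was narrower, slightly under 2 log2 units. A rule added after these values were seen, that the 2 or 3 lowest units lie under 6.73 and at least 2 log2 units below the next, was met by BNIP3 and EGLN1 and by 0.524% of all tested genes. ML-2 has 1 of the 8 arrays with a high GAPDH ratio; among the units whose arrays all have a low ratio, SHI-1 was the lone unit without BNIP3.

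SHI-1 was not low in the genes related to BNIP3. BNIP3L, the paralogue with a like role in mitochondrial autophagy, was at 12.31 in SHI-1 (median 11.80) and FAM162A, a HIF target of mitochondria, at 13.18 (median 12.64). DDIT4, PFKFB4 and P4HA1 in SHI-1 were at 14.33, 13.11 and 13.12, its HIF score was 0.56 and 32 of 35 members lay above their means. The HIF score includes BNIP3, whose low value lowers the score of SHI-1 and that of ML-2 (−0.93). A score without BNIP3 was not made. ML-2 differed: BNIP3L was at its lowest of all units there (9.74), SLC2A3 was at 5.48, P4HA1 at its lowest (8.76) and FAM162A at 10.94, although TPI1 was at its highest (14.61). Of the 5 tested genes on each side of BNIP3 on chromosome 10, 9 of 10 lay within 2 log2 units of their medians in each line. The exception was MGMT in SHI-1, a DNA repair gene, at 4.38 and lower by 4.30, and GLRX3 in ML-2, lower by 2.19. For MGMT, SHI-1 ranked 2 of 30 units from the lowest. MGMT in ML-2 was at 8.98.

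EGLN1 was 4.20 in GDM-1 (signal 2.4), 5.67 in MO7E (signal 34.9) and 5.89 in SH-2 (signal 43.3), against 8.36 in FKH-1, a median of 10.66 and a highest value of 12.85 in OCI-AML5. A second EGLN1 probe set put MO7E at 5.69, GDM-1 at 6.05 and SH-2 at 6.15 with FKH-1 next at 7.14, a narrower gap. In a further one the lines were not apart from the rest, with SH-2 at 4.21, MO7E at 4.40, GF-D8 at 5.24 and GDM-1 at 5.84. The remaining EGLN1 probe set had a mean of 5.65, below 6.73. EGLN1 no longer met the rule with an offset of 64 or with the mean of all its probe sets. Without EGLN1 the HIF score of these lines was −0.44 in GDM-1, −0.49 in MO7E and −0.44 in SH-2, below the mean over units. EGLN3, another member of the family, was at 8.42 in GDM-1, 5.53 in MO7E and 6.80 in SH-2 (median 6.00). The 5 tested genes on each side of EGLN1 on chromosome 1 lay within 2 log2 units of their medians in each of the 3 lines.

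The mirror rule, a highest unit at least 2 log2 units above the next, was met by ADM in OCI-AML5 and by 1.87% of all tested genes. ADM was 14.38 there (signal 21329.7), 11.65 in KMOE-2 (signal 3201.0) and 10.38 in HNT-34, with a median of 7.77. KMOE-2 had ADM high while its HIF score was −0.13, and BHLHE40 (6.86) and NDRG1 (7.46) were at their lowest of all units in it.

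**Figure D3:**
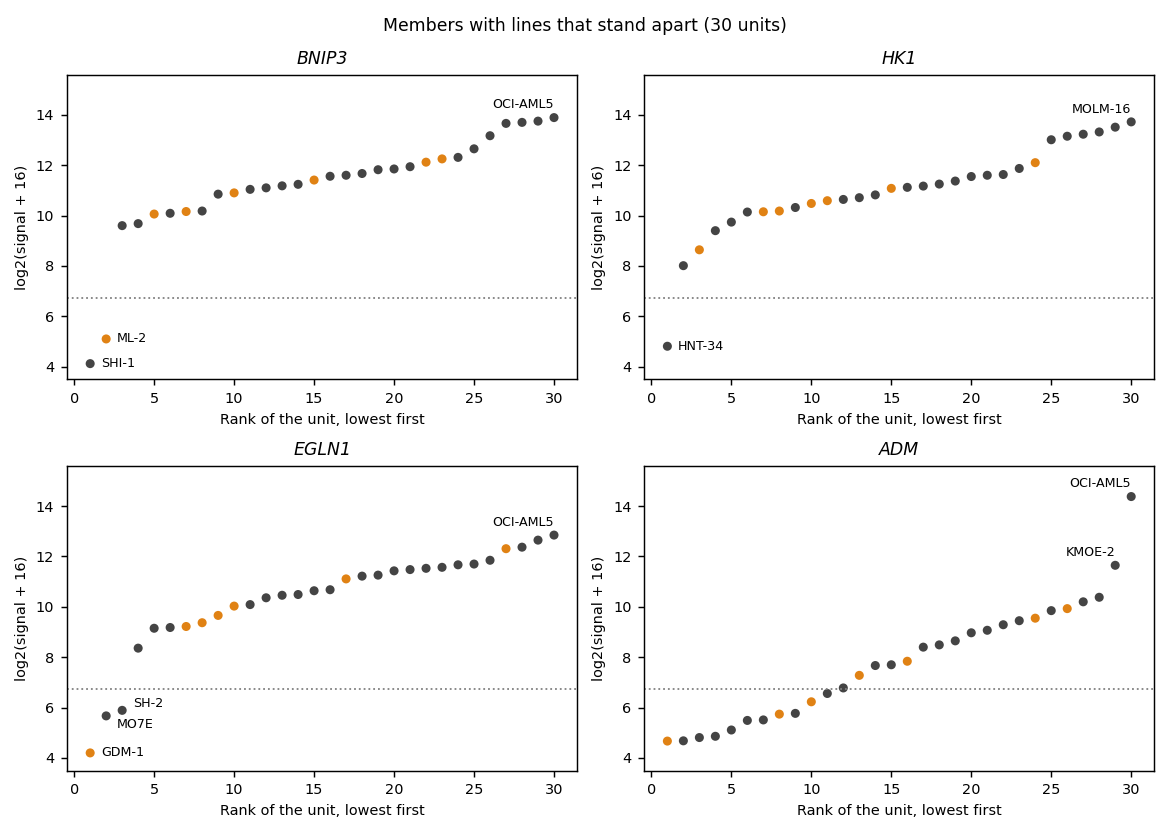
Level of BNIP3, HK1, EGLN1 and ADM in 30 units ranked from lowest to highest, as log2(signal + 16); orange points are units whose array had a high GAPDH ratio, and the dotted line marks 6.73, the middle of all probe sets and arrays. SHI-1 and ML-2 for BNIP3, HNT-34 for HK1 and GDM-1, MO7E and SH-2 for EGLN1 lie below the line and apart from the next unit, and OCI-AML5 lies 2.73 above the next unit for ADM.

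A few values came close to these rules. HILPDA in GF-D8 (6.87) was 2.09 under the next unit but above 6.73. SLC2A3 in ML-2 was 1.83 under THP-1. PFKP in F-36P (7.70) was 1.73 under PL-21 (9.43) and far from its median of 11.85. In F-36P, the muscle-type phosphofructokinase PFKM was at 11.81, its highest of 30 units (median 9.02), and the liver type PFKL at 9.58, its lowest (median 10.89).

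Sublines differed in some members. HL-60 and PLB-985 differed by a median of 0.289 over the 35 members, less than the 0.579 over all tested genes, and 9 of 35 members differed by more than 1, near the 26.7% of all tested genes. DDIT4 was 10.59 in HL-60 and 12.64 in PLB-985, and EGLN1 was 9.91 and 11.36; the largest difference, in P4HA2, was between values under 6.73. KG-1 and KG-1A differed by a median of 0.428 (0.469 over all genes), and 10 of 35 members by more than 1 (20.6% of all tested genes). PFKFB4 was 8.37 in KG-1 and 10.66 in KG-1A, and ENO2 was 4.79, under 6.73, and 7.79. The HL-60 array had a high GAPDH ratio and the PLB-985 array did not.

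The members rose and fell together to a modest extent. Over the 30 units, the median Pearson correlation was 0.277 over the 153 pairs of HIF-specific genes, 0.333 over the 45 pairs of core enzymes and 0.311 over the 180 pairs of 1 HIF-specific gene and 1 core enzyme, against 0.0132 over all pairs of tested genes. Without OCI-AML5 and OCI-M2 these were 0.155, 0.324 and 0.223. The median of the HIF-specific pairs without these units was thus more than 1.5 times smaller, and that of the core pairs was close to its value in 30 units. The 2 units were chosen after seeing the data and had the highest HIF scores (2.42 and 1.52). Leaving them out can by itself lower the HIF-specific median, so no conclusion is drawn from this contrast of the lists. All values on an array share its RNA quality and scaling, and the correlations are given as descriptions.

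The closest pairs were PGK1 and LDHA (r = 0.832), FAM162A and LDHA (0.824) and PGAM1 and LDHA (0.815), each 0.799 or more without OCI-AML5 and OCI-M2. Among HIF-specific genes, P4HA1 had the highest mean correlation with the rest of its list (0.458), followed by ANKRD37 (0.432) and KDM3A (0.401). EGLN3 had the lowest (0.000708), and EGLN3 with LDHA was the most negative pair of all (−0.325). BNIP3, with its 2 lines at background, had a mean of 0.173. For P4HA1 and HILPDA the closest core enzyme was PGK1 (0.746 for each).

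The 4 lines with an added cytokine were compared with the 23 units whose stated medium names none. These lines had higher levels of most members, but no member passed the adjusted test. Quantile normalization and median centring left 33 and 34 of the differences positive. Of 35 members, 33 had a positive difference, against 45.2% of all tested genes, and the exceptions were EGLN3 (−0.08) and PFKP (−0.30). The median difference was 1.57 over the HIF-specific list, 1.12 over the uptake and flux list and 0.42 over the core list, and −0.06 over all tested genes. By limma, 0 of 35 members had an adjusted p under 0.05 (0% of all 15455 tested genes had), and 17, all higher, had an unadjusted p under 0.05 (5.68% of all tested genes, in either direction). These 17 were 12 HIF-specific genes, 2 of uptake and flux control and 3 core enzymes.

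P4HA1 had the lowest p. It was 11.36 in F-36P, 13.37 in OCI-AML2, 13.12 in OCI-AML3 and 13.67 in OCI-AML5, and in the 23 units it ran from 8.76 through a median of 10.76 to 13.12 in SHI-1. The groups overlapped, with 8 of the 23 units above F-36P. The difference was 2.03 ± 0.62 (SE; limma, unadjusted p = 0.00285, adjusted p = 0.801).

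ENO2 was 11.18, 10.28, 11.82 and 13.01 in the same order of lines, and ran from 4.39 through 8.93 to 11.38 in the 23 units, with 6 of them above the lowest of the 4. Its difference was 3.26 ± 1.1 (adjusted p = 0.826 by limma). HILPDA was 9.95, 12.40, 11.81 and 14.23, against 6.87 through 10.21 to 13.35, and F-36P lay within the lower part of the 23 units. BNIP3 was 11.94, 13.75, 13.17 and 13.89, against 4.12 through 11.24 to 13.70, and PGK1 was 14.38, 14.56, 14.49 and 14.67, against 12.96 through 14.02 to 14.86. DDIT4 and ADM differed by 2.31 and 2.60, and the ADM difference fell to 1.24 without OCI-AML5. The adjusted p-values of these genes by limma were all 0.801 or higher.

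**Figure D4:**
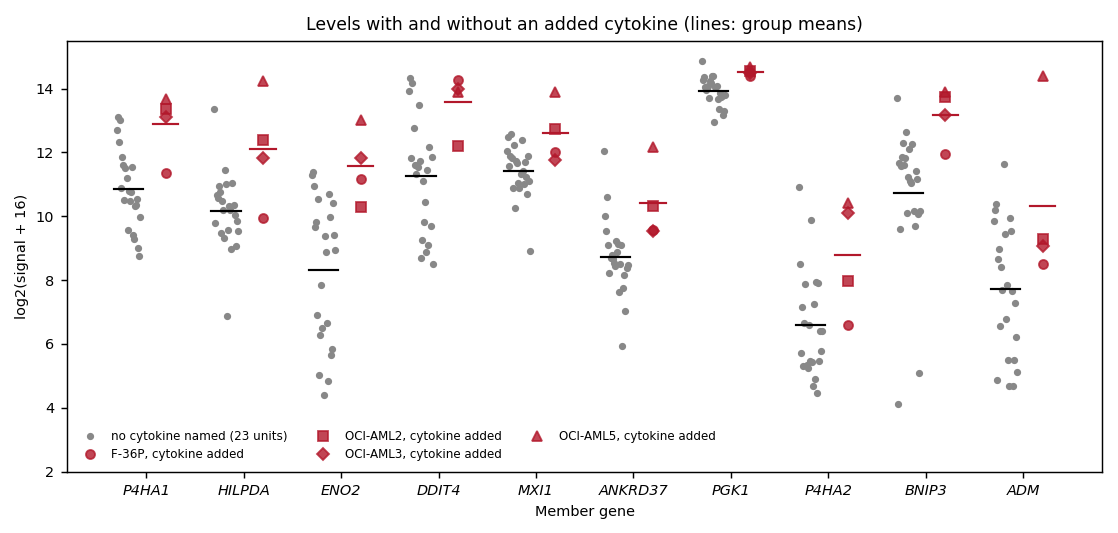
Level of 10 members, as log2(signal + 16), in 23 units with no cytokine named (grey points, black line for their mean) and in the 4 lines with an added cytokine (red symbols, red line for their mean). The red means are above the black means for all 10 genes, the groups overlap in each, and OCI-AML5 is the highest red point for all of them but DDIT4.

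OCI-AML2, OCI-AML3 and OCI-AML5 also grew in alpha-MEM, a medium no other line had, so cytokine and medium cannot be told apart, and a different origin of the lines cannot be told apart from either. F-36P, the line in RPMI, had a HIF score of 0.31, against 1.14 to 2.42 in the other lines of the group. All 4 arrays had a low GAPDH ratio. Among the 23 units, the arrays of GDM-1, ML-2, NB-4, THP-1, NOMO-1, GF-D8 and HL-60 had a high ratio. RNA quality therefore differed between the groups as well. Over the series the median HIF score was −0.63 in units with a high ratio and 0.09 in units with a low one.

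PIM1, PIM2 and PIM3, the kinases the inhibitors act on, were next set against each member as slopes over the 30 units. No member passed the adjusted test by limma for any of them. For PIM1, 2 members had an unadjusted p under 0.05, BHLHE40 and BNIP3L, both positive, against 7.12% of all tested genes (0.00647% by adjusted p). For PIM2 there were 3, all positive (19.4% of all tested genes, and 1.48% by adjusted p), with the lowest adjusted p of 0.187 for BNIP3L. For PIM3 there were 3, all negative, BNIP3L, HK1 and PGK1 (18.4% of all tested genes, and 0.569% by adjusted p). The member shares for PIM2 and PIM3 lay below the shares of all genes. Quantile normalization brought PGK1 past the threshold for PIM3 (slope −0.40, adjusted p = 0.0303, and 0.0303 to 1 over 41 alternatives), while its slope turned positive with median centring (0.11) and without the arrays of high GAPDH ratio (0.03).

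HIF1A, the regulated subunit of HIF, varied little in mRNA (SD 0.541; from 10.86 in GF-D8 through 12.40 to 12.99 in FKH-1). Of 35 slopes on HIF1A, 28 were positive, 10 of 10 for the core enzymes, against 48.7% of all tested genes. By limma no member passed the adjusted test (0.0712% of all tested genes did), and HK2 and BNIP3L had an unadjusted p under 0.05 (13.1% of all tested genes). HK2 had a slope of 1.08 ± 0.30 log2 units for each log2 unit of HIF1A (adjusted p = 0.164). The slope of HK2 ran from 0.74 to 1.24 when 1 unit was left out. Its adjusted p by limma ran from 0.000104, with median centring, to 0.747 over 41 alternatives. GF-D8, lowest in HIF1A, was also lowest in HK2 (8.17), TPI1, PGK1, ENO1 and LDHA. Its array had a high GAPDH ratio, so the slopes on HIF1A are not free of differences in RNA quality. In OCI-AML5 and OCI-M2, HIF1A was at 12.55 and 12.56, near its median.

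MYC, a transcription factor that raises many glycolytic genes, ran from 10.75 in NOMO-1 through 13.11 to 14.40 in the HL-60 and PLB-985 pair. Of 35 slopes on MYC, 28 were positive (39.7% of all tested genes), and again no member passed the adjusted test by limma (0.11% of all tested genes did). PDK1 (0.57 ± 0.18, adjusted p = 0.152) and FAM162A (0.40, adjusted p = 0.254) had an unadjusted p under 0.05 (15.3% of all tested genes). Without the GF-D8 array 2 members passed, PDK1 among them (adjusted p = 0.0275; 0.00375 to 0.721 over 41 alternatives, by limma), in a fit where 1510 of all genes passed, a larger share than that of the members.

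Centring each array on its median changed these counts. It moved the median slope of all genes on HIF1A from −0.01 to 0.23, on MYC from −0.07 to 0.11 and on PIM2 from −0.04 to 0.14. The median slope of the members on HIF1A was 0.26 before centring and 0.58 after it, above the median of all genes in both. After centring, 13, 11 and 13 members rose with HIF1A, MYC and PIM2, in a table in which 32.3%, 19.3% and 26.2% of all genes passed, 86.2%, 86.9% and 86.2% of them upward. In the values as deposited 72.7%, 47.1% and 48.9% of the called genes rose.

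GATA1, the master factor of the erythroid and megakaryocyte lineages, was the predictor with calls among the members. HK1, SLC2A3 and SLC2A1 rose with GATA1, and no member fell. That is 3 of 35 members, near the 8.29% of all tested genes that passed, and 9 had an unadjusted p under 0.05 (21.6% of all tested genes), 7 of them higher and 2 lower. All 3 belong to the 7 genes of uptake and flux control, and 0 of 18 HIF-specific genes and 0 of 10 core enzymes passed by limma.

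GATA1 ran from 5.20 in SH-2 through a median of 6.99 to 11.36 in OCI-M2. It was above 6.73 in only 16 units, so its low values carry little order. The slopes on GATA1 include the units below 6.73. Its 6 highest units, a number taken after the values were seen, were OCI-M2, OCI-M1, HEL, F-36P, MOLM-16 and SET2. HK1 in these 6 units was between 13.01 and 13.72 with a median of 13.27. In the other 24 units it was between 4.81 and 12.10 with a median of 10.67. The 6 units highest in GATA1 were thus the 6 highest in HK1, but GATA1 had no break below them. After SET2 (10.62), GATA1 was 10.34 in GF-D8 and 10.27 in KMOE-2, where HK1 was 12.10 and 11.17. The slope of HK1 was 0.44 ± 0.12 log2 units for each log2 unit of GATA1 (limma, adjusted p = 0.0257).

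SLC2A3 was between 10.95 and 13.55 in the same 6 units and between 5.48 and 12.52 in the other 24 units. The groups overlapped, and the slope was 0.40 ± 0.12 (limma, adjusted p = 0.0379). SLC2A1 was between 9.35 and 11.15 in the 6 units and between 8.54 and 10.36 in the other 24 units, with a slope of 0.14 ± 0.043 (limma, adjusted p = 0.0417). The count of members that rose was 0 without any 1 of MOLM-16, OCI-M1, OCI-M2 or SET2, 1 without any 1 of EOL-1, F-36P, MOLM-13 or the HL-60 and PLB-985 pair, 0 without OCI-AML5 and OCI-M2 together, and 0 among the RPMI units alone. The slopes stayed positive in each of these fits, from 0.40 to 0.47 for HK1 when 1 unit was left out. Over 41 alternatives the adjusted p by limma ran from 0.00108 to 0.416 for HK1, from 0.00997 to 0.315 for SLC2A3 and from 0.0173 to 0.238 for SLC2A1.

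**Figure D5:**
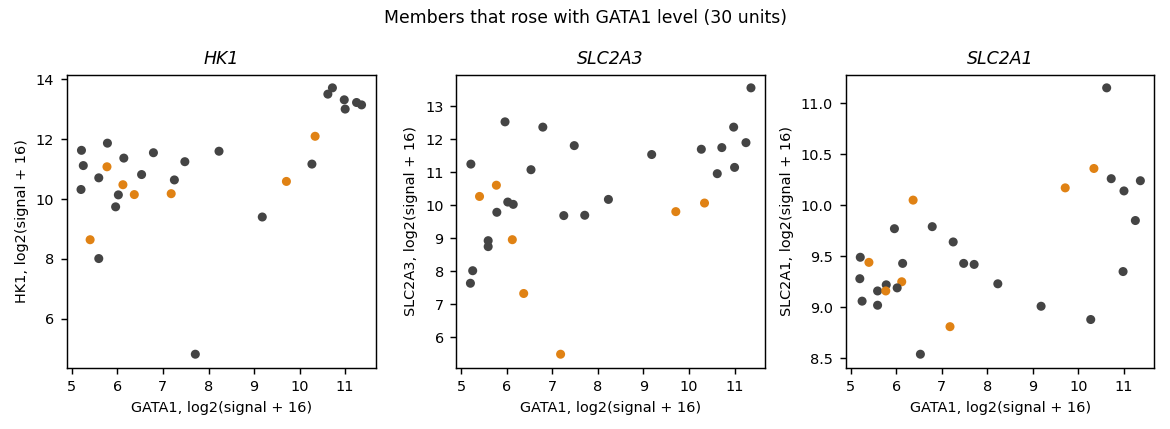
Level of HK1, SLC2A3 and SLC2A1 against that of GATA1 in 30 units, each as log2(signal + 16); orange points are units whose array had a high GAPDH ratio. The 6 units with the highest GATA1, a number taken after the values were seen, are the 6 highest for HK1 (13.01 to 13.72). SLC2A3 and SLC2A1 overlap between units of high and low GATA1.

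Other genes of the same pathways, not members, were read from lists made with earlier results of these data known. Of 18 tested genes of glycolysis and its branches, 2 rose and 2 fell with GATA1. PKLR, the pyruvate kinase of liver and red cells, rose by 0.55 ± 0.084 for each log2 unit (limma, adjusted p = 5.86e-05), and PFKM rose by 0.41 ± 0.11 (adjusted p = 0.0151). PKLR was low in many units. Over the 23 units with no cytokine named it ran from 4.77 to 9.78, with a median of 6.18, under 6.73. TIGAR, which lowers fructose-2,6-bisphosphate, fell by 0.56 (adjusted p = 0.000131), and the pyruvate dehydrogenase phosphatase PDP1 fell by 0.23 (adjusted p = 0.0356). Of 9 tested genes of the HIF system, among them HIF1A, EPAS1, ARNT and VHL, 0 passed for GATA1 by limma, with 0 also at an unadjusted p under 0.05.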

How the data were processed

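Total RNA of 32 AML cell lines was measured on 1 array each. The authors deposited 1 linear intensity for each probe set and array, and Affymetrix Expression Console is the tool named, per the submitters' processing notes; its version and summarization method are not given in the sources used here. With 2% trimmed at either end, the mean was 500 to 500.1 on every array.

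Values were taken as log2(signal + 16) with no further scaling. Probe sets with 1 symbol (41091, with 1801 of several symbols left out) were named by the platform annotation and updated to RefSeq symbols (54 had no match); the one with the highest mean stood for a gene. Genes above 6.73 in at least 3 units were tested. The growth label KG1? was read as KG-1A. R 4.3.3 with limma 3.58.1 (lmFit, eBayes with trend) gave 7 fits over all tested genes, two-sided, with Benjamini-Hochberg adjustment at 0.05; errors after ± in fits are SE. The code was tested on simulated data. With 1 array a line, p-values measure the spread between lines, and precision is limited by the number of arrays. Python 3.11.15 with pandas 2.3.3 was used for the rest.

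The members and lists were chosen with earlier results of these data known. By rule, values are given for the 10 members of largest SD, the 3 of smallest SD, members lost or gained in a line, members passing a fit, BNIP3, and up to 4 other pathway genes a fit. Cell type markers were used as a check of the lines. Alternatives were another offset, quantile normalization, median centring, no filter, the mean of all probe sets, 32 separate lines, the GAPDH ratio as a covariate, and leaving out arrays or units.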

Additional observations from a re-analysis of the deposited data

Results flagged for a closer look

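In the 2 culture groups of 4 lines, 70 sets of member levels were examined, and 8 had 1 line far from the other lines of its group (chance flags about 1 in 20). Levels are log2(signal + 16). Among the lines with an added cytokine, ADM was 14.38 in OCI-AML5 and 8.49 to 9.29 in the other lines. F-36P was the low line for the other flagged genes of this group. NDRG1 was 8.84 in F-36P and 13.50 to 14.24 in the other lines, PFKP was 7.70 against 12.36 to 12.72, and ALDOC was 6.98 against 12.48 to 12.80.

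Among the lines in IMDM with no cytokine named, SH-2 was the low line for 3 genes. DDIT4 was 11.46 in SH-2 and 13.92 to 14.33 in the other lines, P4HA1 was 10.33 against 12.69 to 13.12, and PDK1 was 8.87 against 11.24 to 11.72. EGLN3 was 4.50 in OCI-M1 and 6.80 to 7.15 in the other lines.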

How the results depend on the processing

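The count of members passing stayed at 0 under most alternatives tried in each fit but that on GATA1, where it was 3. Median centring gave 13 for PIM2, 13 for HIF1A and 11 for MYC, all upward, in tables where 4055, 4984 and 2987 genes passed, and quantile normalization gave 1 for PIM3 where 1035 genes passed. When 1 unit was left out in turn, the counts ran from 0 to 2 for MYC, from 0 to 4 for GATA1, and stayed at 0 for PIM1, PIM2, PIM3, HIF1A and the added cytokine. For GATA1 the count was 0 in the RPMI units alone and 0 without OCI-AML5 and OCI-M2, an alternative chosen after seeing the data. HK1 missed the threshold without the arrays of high GAPDH ratio (adjusted p = 0.0543 by limma), SLC2A3 with quantile normalization (0.0553) and with the GAPDH ratio as a covariate (0.0569), and SLC2A1 with median centring (0.0957), without the filter (0.053) and with the mean of all probe sets (0.0718). Their slopes in these fits were 0.46 for HK1 (0.44 in the fit reported), 0.39 and 0.35 for SLC2A3 (0.40) and 0.12 to 0.14 for SLC2A1 (0.14). The slope of PGK1 on PIM3 turned from −0.37 to 0.11 with median centring and to 0.03 without the arrays of high GAPDH ratio; the cause was not tested. The members lost in 1 unit numbered 2 with quantile normalization and 2 with median centring (HILPDA and HK1), 2 without the arrays of high GAPDH ratio (BNIP3 and HK1, since ML-2 is then out) and 2 with every probe set on its own (SLC2A3 and HK1). With every probe set on its own 3 members (ADM, BHLHE40 and ENO1) had a highest unit apart. Of BNIP3 and EGLN1, with 2 or 3 lowest units apart, 1 was left with an offset of 64 (BNIP3), 1 with the mean of all probe sets (BNIP3) and 1 without the arrays of high GAPDH ratio (EGLN1). The members with OCI-AML5 among their 3 highest units numbered 23 to 28, and with OCI-M2 14 to 18, under the alternatives tried. The filter kept all 35 members, so it was not varied for the gaps and correlations. No paired analysis was possible because the groups share no replicates.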
